A study of Oryctolagus cuniculus with 16 samples.

Results

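The activins, the follistatins and their receptors were examined in the femoral head of rabbits with and without surgically induced Perthes disease. The family was taken as a fixed list of 10 gene symbols covering the ligand subunits *INHBA*, *INHBB* and *INHA*, the antagonists *FST* and *FSTL3*, and the receptors *ACVR1*, *ACVR1B*, *ACVR2A*, *ACVR2B* and *ACVRL1*. Of these, 9 were listed by symbol among the 20255 genes of the count table and all 9 were abundant enough to be tested, whereas *FSTL3* was not analysed here. The Perthes group held 5 wild-type rabbits in which, at 8 weeks of age, the femoral neck had been ligated and the ligamentum teres transected to block blood flow to the epiphysis, and the control group held 3 wild-type rabbits. The age of the controls and the time between surgery and tissue collection are not given in the sources used here. The lesion was made by surgery, and each library came from femoral head tissue, with no separation of cell types described. Which parts of the head were taken is not stated, and transcripts of cartilage, bone and marrow were measured together.

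Activins are secreted dimers of the beta subunits encoded by *INHBA* and *INHBB*, and pairing of a beta subunit with the alpha subunit encoded by *INHA* gives inhibin, which opposes them. An activin dimer binds the type II receptors ACVR2A or ACVR2B, which then recruit and phosphorylate a type I receptor, chiefly ACVR1B (ALK4), and the signal passes to the nucleus through SMAD2 and SMAD3. Follistatin, the product of *FST*, wraps around the ligand and hides its receptor-binding surfaces. In bone and cartilage activin A is known as a product of matrix-forming and inflamed tissue that acts on osteoclast precursors, chondrocytes and fibroblasts, and ACVR1 (ALK2) and ACVRL1 (ALK1) are related type I receptors that mainly carry BMP signals through SMAD1 and SMAD5.

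The 8 libraries held 26757087 to 29461482 counts each, and 1 count corresponded to 0.0333 to 0.0374 CPM, with CPM the counts scaled to a common library size after TMM normalization. Transcripts of cartilage and bone were present in every rabbit, as 5 chondrocyte markers summed to between 34250 and 139100 CPM and 5 osteoblast markers to between 948 and 2618 CPM. Marrow transcripts differed between the groups. The 4 neutrophil markers listed summed to 2400 to 8260 CPM in controls and 13.6 to 733 CPM in Perthes rabbits, and the 5 erythroid markers to 3582 to 4248 CPM and 27.8 to 1709 CPM. In such mixed tissue, fewer cells of a type and less RNA per cell cannot be told apart, and this holds for every gene described here. Principal components of the log2 CPM values were computed, and the second (13.1% of the variance) placed Perthes rabbit 4 at -78.4 and the other 7 rabbits between -7.51 and 27.5. Where leaving out this rabbit moved the fold change of a family gene appreciably, the value without it is also given.

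Of the 9 genes, 2 rose in Perthes rabbits by edgeR's quasi-likelihood test at a Benjamini-Hochberg adjusted p below 0.05, against a background of 6.21% of the 15305 genes tested, and 0 fell, against 8.86% (15.1% of all genes were called in either direction). Both were type I receptors, *ACVRL1* and *ACVR1B*, and each was a little less than doubled. The ligand genes *INHBA* and *INHBB* had far larger fitted changes, 14.8-fold and 9.08-fold, but varied so much between rabbits of one group that neither passed the test. Fitted changes were above 0 for 8 of the 9 genes, against 51.6% of all genes, with a median log2 fold change of 0.81 against 0.03 over all genes. Unadjusted p-values below 0.05 were found for 5 of the 9 and for 4883 of all genes. In 4 of the 9 every Perthes rabbit lay above every control, against a background of 11.2%, and in 0 of the 9 below, against 13.9%. The number that rose was 3 without Perthes rabbit 4, 1 without control rabbit 3, and 0 without Perthes rabbit 3 or 5 or control rabbit 1 or 2. Over all genes, where 951 rose in the full fit, 1267 rose without Perthes rabbit 4 and 695 without control rabbit 3. Only 385 and 351 rose without Perthes rabbits 3 and 5, and 73 and 0 without control rabbits 1 and 2. DESeq2, run as an alternative, called 5 of the 9 higher against a background of 9.74%, adding *INHBA*, *INHBB* and *ACVR2A*.

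**Figure D1:**
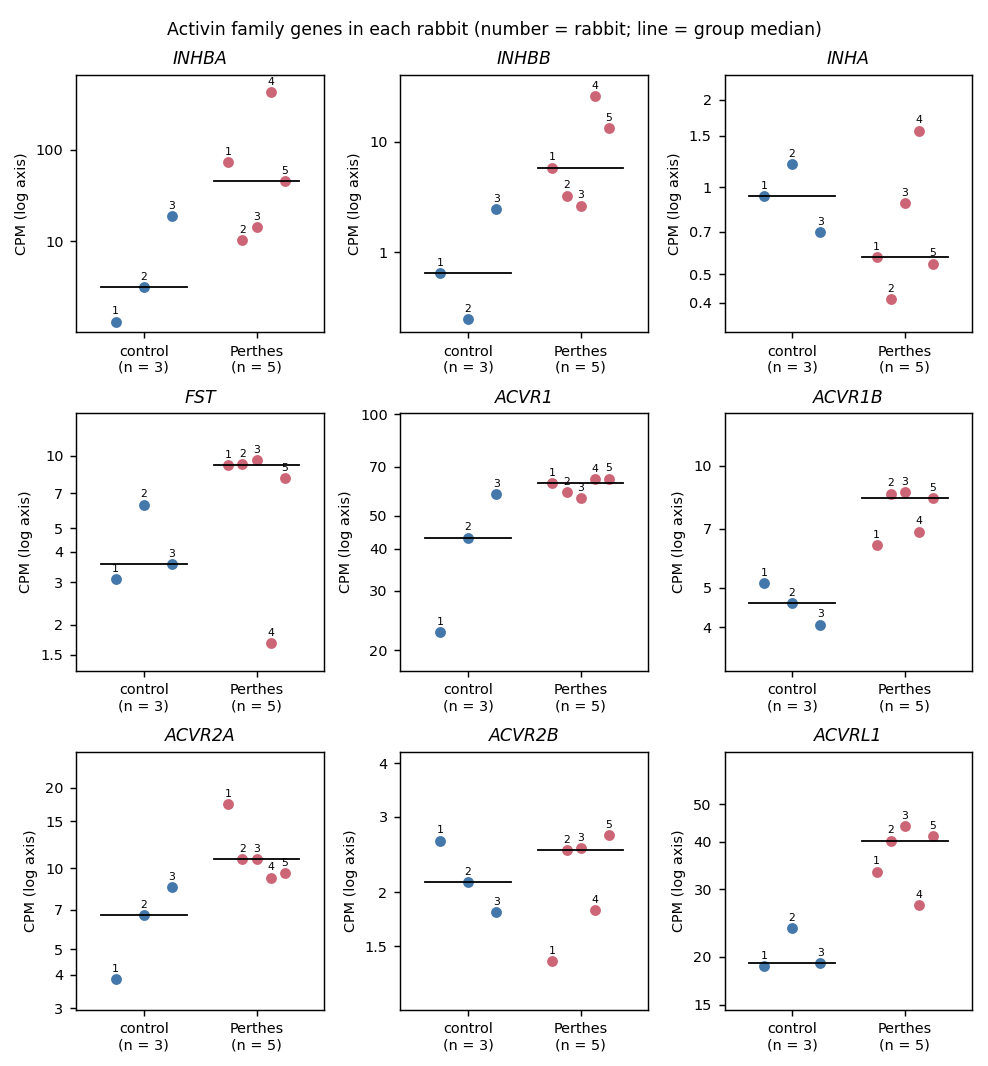
CPM on a log axis for each of the 9 genes in 3 control and 5 Perthes rabbits, with points numbered by rabbit and a line at each group median. *INHBA* and *INHBB* spread over more than an order of magnitude with Perthes rabbit 4 on top at 429 and 26.1 CPM, while *ACVR1B* and *ACVRL1* form compact groups that do not overlap.

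Among the ligands, *INHBA* (gene 100354786), the beta A subunit of activin A, was measured at 73.6, 10.3, 14.25, 429 and 45.6 CPM in Perthes rabbits 1 to 5 and at 1.32, 3.17 and 18.7 CPM in controls 1 to 3. Control rabbit 3 thus lay above Perthes rabbits 2 and 3, and the groups overlapped. Perthes rabbit 4 alone held 74.9% of the summed CPM of the Perthes group, and control rabbit 3 held 80.6% of that of the controls. The means were 115 ± 178 CPM over the Perthes rabbits (SD, n = 5) and 7.73 ± 9.54 CPM over the controls (SD, n = 3). The fitted log2 fold change reached 3.89 ± 1.496 (SE), with a 95% interval of 0.51 to 7.26. The adjusted p was 0.110 from edgeR and 0.0220 from DESeq2, and a two-sided exact permutation test over the rabbits gave p = 0.107. Without Perthes rabbit 4 the log2 fold change was 2.21 (adjusted p = 0.164 from edgeR), and without control rabbit 3 it was 5.67 (adjusted p = 0.0790 from edgeR).

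The beta B subunit gene *INHBB* (100341426) had 5.84, 3.26, 2.64, 26.1 and 13.2 CPM in Perthes rabbits 1 to 5 and 0.643, 0.247 and 2.46 CPM in the controls. Every Perthes rabbit was above every control, although Perthes rabbit 3 and control rabbit 3 nearly touched. As with *INHBA*, Perthes rabbit 4 was the highest of all and control rabbit 3 was the highest control. The means were 10.2 ± 9.84 CPM (SD, n = 5) and 1.12 ± 1.18 CPM (SD, n = 3), and the fitted log2 fold change reached 3.18 ± 1.00 (SE), with a 95% interval of 0.92 to 5.44. The adjusted p was 0.0614 from edgeR and 0.00113 from DESeq2, and the exact two-sided permutation p was 0.0357, the smallest that 5 rabbits against 3 allow. With 1 rabbit left out at a time the log2 fold change ran from 2.47 without Perthes rabbit 4 (adjusted p = 0.0802 from edgeR) to 4.51 without control rabbit 3 (adjusted p = 0.0447 from edgeR). The gene also passed the threshold without Perthes rabbit 2 (adjusted p = 0.0469 from edgeR), and the adjusted p in the other fits was 0.0664 to 0.190, the highest being without control rabbit 1.

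The inhibin alpha subunit gene *INHA* (100328899) had few counts, with 11 to 43 counts in Perthes rabbits and 21 to 34 in controls. It stood at 0.574, 0.412, 0.881, 1.56 and 0.545 CPM in Perthes rabbits 1 to 5 and at 0.929, 1.199 and 0.698 CPM in the controls. Perthes rabbit 4, the highest for both beta subunits, was also the highest for this gene, and the groups overlapped. The log2 fold change was -0.24 (95% interval -1.30 to 0.81, adjusted p = 0.752 from edgeR), an interval that includes both a fall to 0.406 of the control level and a 1.76-fold rise. Without Perthes rabbit 4 the log2 fold change was -0.64 (adjusted p = 0.263 from edgeR).

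Follistatin, the activin antagonist encoded by *FST* (100343725), was at 9.12, 9.21, 9.58, 1.67 and 8.10 CPM in Perthes rabbits 1 to 5 and at 3.07, 6.28 and 3.56 CPM in controls. A total of 4 Perthes rabbits lay above all controls, and Perthes rabbit 4, with the most *INHBA*, had the least *FST* of all 8 rabbits. The means were 7.54 ± 3.32 CPM (SD, n = 5) and 4.30 ± 1.73 CPM (SD, n = 3), with a log2 fold change of 0.81 (95% interval -0.35 to 1.97, adjusted p = 0.311 from edgeR). Without Perthes rabbit 4 the log2 fold change was 1.06 and *FST* passed the threshold (adjusted p = 0.0342 from edgeR).

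**Figure D2:**
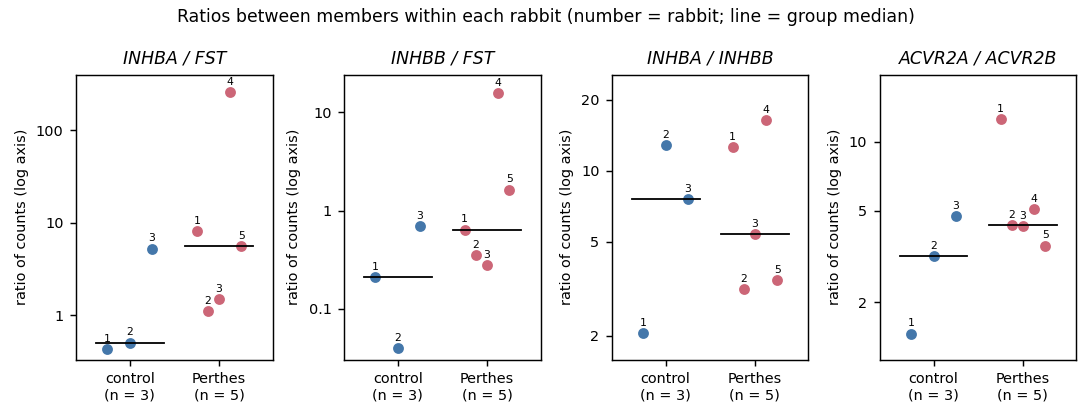
Ratio of the counts of a pair of family genes within each library, on a log axis, for 3 control and 5 Perthes rabbits, with points numbered by rabbit and a line at each group median. The ratio of *INHBA* to *FST* runs from 0.430 in control rabbit 1 to 257 in Perthes rabbit 4, and the groups overlap in all 4 panels.

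Because ratios of counts within a library do not depend on how libraries are scaled, ligand and antagonist were also set against each other in this way, as a description with no test and with no correction for gene length. The *INHBA* to *FST* ratio was 8.07, 1.11, 1.49, 257 and 5.63 in Perthes rabbits 1 to 5 and 0.430, 0.506 and 5.25 in controls 1 to 3. Control rabbit 3 was therefore within the range of the Perthes rabbits, and controls 1 and 2 were below it. The *INHBB* to *FST* ratio was 0.641, 0.354, 0.276, 15.6 and 1.63 against 0.209, 0.0393 and 0.692, again with an overlap through control rabbit 3. Counts of *INHBA* relative to *INHBB* overlapped widely, with 3.15 to 16.4 counts of *INHBA* per count of *INHBB* in Perthes rabbits and 2.06 to 12.9 in controls. The mean log2 of this ratio differed by 0.20 between the groups, against SDs of 1.09 (n = 5) and 1.33 (n = 3).

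The type I activin receptor gene *ACVR1B* (100345068) rose in Perthes rabbits. It was measured at 6.38, 8.54, 8.63, 6.88 and 8.34 CPM in Perthes rabbits 1 to 5 and at 5.145, 4.58 and 4.06 CPM in the controls. No rabbit of one group entered the range of the other, and within each group the values differed by at most 1.35-fold. The means were 7.75 ± 1.045 CPM (SD, n = 5) and 4.60 ± 0.544 CPM (SD, n = 3), a 1.69-fold change (edgeR log2 fold change 0.75 ± 0.20 SE, 95% interval 0.31 to 1.195, adjusted p = 0.0336). The exact two-sided permutation p was 0.0357. With 1 rabbit left out at a time the log2 fold change stayed between 0.67 and 0.845, but the adjusted p from edgeR was below 0.05 in 2 of the 8 fits, those without Perthes rabbit 1 (0.0306) and Perthes rabbit 4 (0.0339). It was 0.0533, 0.0787 and 0.0844 without Perthes rabbits 2, 3 and 5 and 0.0746, 0.119 and 0.0938 without controls 1, 2 and 3.

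A similar rise was found for *ACVRL1* (100344814), which encodes ALK1, a type I receptor best known from endothelial cells. Its levels were 33.4, 40.25, 43.8, 27.3 and 41.25 CPM in Perthes rabbits 1 to 5 and 18.9, 23.7 and 19.3 CPM in controls 1 to 3, so the groups did not overlap. The means were 37.2 ± 6.75 CPM (SD, n = 5) and 20.65 ± 2.67 CPM (SD, n = 3), a 1.80-fold change (edgeR log2 fold change 0.85 ± 0.19 SE, 95% interval 0.41 to 1.28, adjusted p = 0.0224, exact two-sided permutation p = 0.0357). Levels of endothelial markers overlapped between the groups. Of 6 such markers (*PECAM1*, *CDH5*, *VWF*, *KDR*, *TEK* and *EMCN*) 0 were called in either direction, 3 had a fitted change above 0, and their summed level was 279 to 388 CPM in Perthes rabbits and 283 to 342 CPM in controls. The largest fitted change among them was that of *VWF*, a log2 fold change of 1.59 (adjusted p = 0.0606 from edgeR). Leaving out 1 rabbit at a time kept the log2 fold change of *ACVRL1* between 0.78 and 0.96. The adjusted p from edgeR was below 0.05 without Perthes rabbits 1, 2 or 4 and was 0.0552 and 0.0575 without Perthes rabbits 3 and 5 and 0.0880, 0.0628 and 0.0606 without controls 1, 2 and 3.

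The third type I receptor gene, *ACVR1* (100355119), which encodes ALK2, did not pass the test. Perthes rabbits 1 to 5 had 62.5, 58.7, 56.4, 64.25 and 64.5 CPM, and the controls had 22.6, 43.2 and 57.9 CPM. The Perthes values were nearly level, with a 1.14-fold range, whereas the controls spanned a 2.56-fold range and control rabbit 3 lay above Perthes rabbit 3. The means were 61.3 ± 3.57 CPM (SD, n = 5) and 41.2 ± 17.7 CPM (SD, n = 3), with a log2 fold change of 0.57 (95% interval -0.03 to 1.17, adjusted p = 0.173 from edgeR).

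Of the type II receptor genes, *ACVR2A* (100008631) was at 17.4, 10.9, 10.8, 9.24 and 9.60 CPM in Perthes rabbits 1 to 5 and at 3.86, 6.70 and 8.51 CPM in controls. All Perthes rabbits were above all controls, with Perthes rabbit 4 and control rabbit 3 the closest. The fitted log2 fold change reached 0.865 ± 0.31 (SE), with a 95% interval of 0.16 to 1.57, with an adjusted p of 0.0914 from edgeR and 0.0465 from DESeq2 and an exact two-sided permutation p of 0.0357. *ACVR2B* (103347244), the paralog that binds the same ligands, was at 1.385, 2.51, 2.53, 1.82 and 2.72 CPM in Perthes rabbits and 2.64, 2.12 and 1.80 CPM in controls. The groups overlapped fully, and the log2 fold change was 0.006 (95% interval -0.67 to 0.68, adjusted p = 0.991 from edgeR), with a sign that turned with the scaling and with the rabbits included. Within a library there were 12.6, 4.33, 4.275, 5.08 and 3.525 counts of *ACVR2A* per count of *ACVR2B* in Perthes rabbits 1 to 5 and 1.46, 3.17 and 4.74 in the controls. These ranges overlapped.

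**Figure D3:**
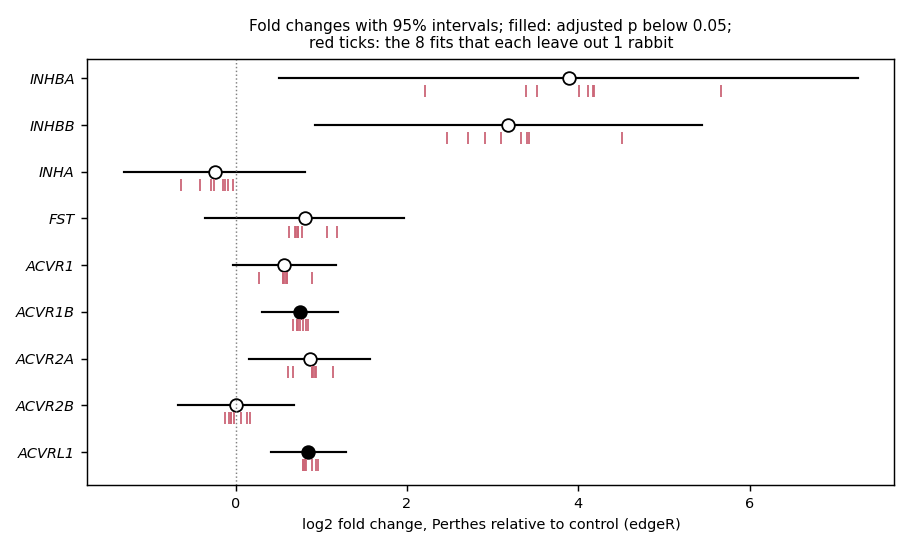
Log2 fold change of each of the 9 genes in Perthes relative to control rabbits from edgeR, with 95% intervals as lines, filled points for an adjusted p below 0.05 and red ticks for the 8 fits that each leave out 1 rabbit. The intervals of *ACVR1B* and *ACVRL1* are short, whereas that of *INHBA* runs from 0.51 to 7.26.

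Control rabbits differed among themselves in the same genes. *INHBA*, *INHBB*, *ACVR1* and *ACVR2A* were each highest in control rabbit 3 among the controls, and *INHBA*, *ACVR1* and *ACVR2A* were each lowest in control rabbit 1. *ACVR1B* and *ACVR2B* ran the other way, highest in control rabbit 1 and lowest in control rabbit 3. *INHA*, *FST* and *ACVRL1* were each highest in control rabbit 2. The neutrophil marker sum was highest in control rabbit 1, at 8260 CPM against 2712 and 2400 CPM in controls 2 and 3, and the chondrocyte marker sum was highest in control rabbit 3, at 64830 CPM against 47260 and 45850 CPM. The osteoblast marker sum was also highest in control rabbit 3, at 1717 CPM against 948 and 1341 CPM in controls 1 and 2. Of the osteoblast markers *BGLAP* went the other way, at 295 CPM in control rabbit 3 against 304 and 467 CPM in controls 1 and 2. Among the Perthes rabbits, rabbit 4 had the highest chondrocyte marker sum (139100 CPM against 34250 to 76930) and the lowest macrophage marker sum (389 CPM against 770 to 1302). It also had the highest osteoblast marker sum (2618 CPM against 1322 to 1730) and the lowest osteoclast marker sum (1466 CPM against 2728 to 4229). Most of that osteoblast sum was *IBSP*, at 1749 CPM. *IBSP*, *RUNX2* and *ALPL* were highest in this rabbit among the Perthes rabbits, but *SP7* was not. *BGLAP* was lowest in it, at 50.3 CPM against 80.8 to 316.5 CPM. Of the osteoclast markers, *CTSK*, *OCSTAMP* and *DCSTAMP* were lowest in this rabbit, whereas *ACP5* and *CALCR* were not. The part of these marker levels in the values of the activin genes was not tested.

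Across the groups, 3 of 5 macrophage markers (*CD68*, *CSF1R* and *MRC1*) and 2 of 5 osteoclast markers (*CTSK* and *DCSTAMP*) rose, with summed levels of 389 to 1302 CPM against 333 to 350 CPM and of 1466 to 4229 CPM against 702 to 1223 CPM. The other macrophage markers were not called, with *MARCO* at a log2 fold change of -2.19 and *CD163* at 0.19 (adjusted p of 0.0542 and 0.740 from edgeR). Nor were the osteoclast markers *ACP5*, *CALCR* and *OCSTAMP*, at log2 fold changes of 0.36, 1.42 and 1.07 (adjusted p of 0.59, 0.094 and 0.258 from edgeR). Most of the osteoclast sum was *CTSK*, at 991.5 to 3773 CPM in Perthes rabbits and 404 to 831 CPM in controls. The fibroblast list had 1 of 5 genes higher, the collagen gene *COL3A1*, and fitted changes above 0 in all 5. Among these, *LUM*, the gene of the matrix proteoglycan lumican, had a log2 fold change of 2.01 (adjusted p = 0.0603 from edgeR) with every Perthes rabbit above every control. The fibroblast sums overlapped at 69040 to 157100 CPM and 74130 to 93650 CPM, but most of them was *COL1A1*, a collagen gene that bone also expresses, at 44670 to 143900 CPM in Perthes rabbits and 72820 to 90890 CPM in controls. Of the neutrophil markers 2 of 4 fell (*S100A8* and *S100A9*) and of the B cell markers 1 of 4 (*MS4A1*), while 0 of the 5 chondrocyte, 5 osteoblast, 3 adipocyte and 2 skeletal muscle markers tested were called. The skeletal muscle genes summed to 0.388 to 8.75 CPM, with control rabbit 3 highest, and no listed marker was at 0 in all libraries. *ELANE*, *CD79A*, *MYH2*, *TNNT3* and *PLIN1* of these lists were not analysed here. The part of these marker differences in the rise of *ACVR1B* and *ACVRL1* was not tested.

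**Figure D4:**
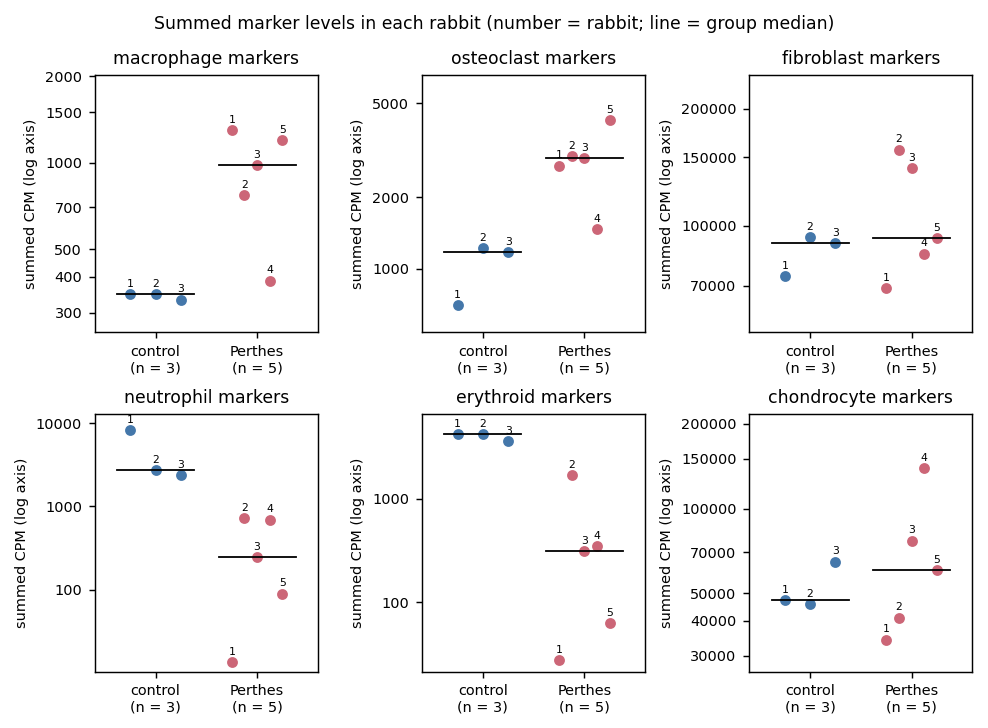
Summed CPM on a log axis for 6 lists of cell-type markers in 3 control and 5 Perthes rabbits, with points numbered by rabbit and a line at each group median. Neutrophil and erythroid sums are below all controls in every Perthes rabbit, macrophage and osteoclast sums are above, and chondrocyte and fibroblast sums overlap.

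The wider pathway was followed in a list of 44 further genes, covering other ligands of the activin receptors, the convertases that cleave ligand precursors, other receptors, other antagonists, SMADs, SMAD regulators and target genes. Of these, 38 were listed by symbol and 32 were tested. At the same threshold 3 rose and 1 fell, or 3 of 32 against the background of 6.21% and 1 of 32 against 8.86%, and the median log2 fold change was 0.37. The number that rose was 1 without Perthes rabbit 3 or control rabbit 3 and 0 without Perthes rabbit 5 or control rabbit 1 or 2, and the number that fell was 0 without control rabbit 1 or 2. The numbers that rose over all genes in these fits are given above. Over all genes 1356 fell in the full fit, and 184 and 0 fell without control rabbits 1 and 2.

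Upstream of the receptors, *GDF11*, a ligand that uses ACVR2A and ACVR2B and that follistatin also binds, was the gene that fell. It was at 12.3, 14.45, 12.04, 12.7 and 14.9 CPM in Perthes rabbits 1 to 5 and at 23.4, 22.6 and 20.9 CPM in controls, an edgeR log2 fold change of -0.75 ± 0.145 (SE) at an adjusted p of 0.0150. The groups were far apart and each was tight. *FURIN*, a convertase that cleaves activin and TGF-beta precursors, rose from 100 ± 16.7 CPM in the controls (SD, n = 3) to 193 ± 34.9 CPM in the Perthes rabbits (SD, n = 5), an edgeR log2 fold change of 0.94 ± 0.21 (SE) at an adjusted p of 0.0208, with no overlap. The other convertases *PCSK5* and *PCSK6* had log2 fold changes of 0.68 and 0.33 (adjusted p of 0.124 and 0.588 from edgeR). The remaining ligands *INHBC*, *MSTN*, *NODAL*, *GDF2* and *BMP10* had no more than 6 counts in any rabbit and were not tested. *FSTL1*, a secreted glycoprotein with a follistatin domain, rose from 342 ± 156 CPM in the controls (SD, n = 3) to 742 ± 89.3 CPM in the Perthes rabbits (SD, n = 5), an edgeR log2 fold change of 1.12 ± 0.30 (SE) at an adjusted p of 0.0385, and its lowest Perthes value, 608 CPM in rabbit 4, was above the highest control value of 507 CPM in rabbit 3.

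Among the other receptors 0 of 5 tested were called. The type II receptor gene *BMPR2*, the one with the most counts, had a log2 fold change of 0.36 (adjusted p = 0.387 from edgeR). *ENG*, the coreceptor that works with ALK1, was at 104 to 122 CPM in Perthes rabbits and 86.0 to 89.7 CPM in controls, ranges that did not overlap, with an edgeR log2 fold change of 0.38 ± 0.13 (SE) at an adjusted p of 0.0832. *ACVR1C*, which encodes the activin receptor ALK7, had a log2 fold change of -1.64 (adjusted p = 0.223 from edgeR) at 0.485 ± 0.470 CPM (SD, n = 5) against 1.51 ± 1.14 CPM (SD, n = 3).

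Inside the cell, SMADs carry the signal and a set of regulators limits it. Of 8 SMAD genes 0 were called, with log2 fold changes from -0.03 to 0.57. *SMAD5*, the one with the most counts, stood at 0.41, and the activin-responsive *SMAD2* and *SMAD3* stood at 0.015 and 0.31, with adjusted p-values of 0.963 and 0.340 from edgeR. Of 6 SMAD regulators 0 were called, with log2 fold changes from 0.13 to 0.85, and *SKIL*, again the one with the most counts, was at 0.55. Unadjusted p-values from edgeR were below 0.05 for 1 of the 8 SMAD genes, *SMAD7*, and for 0 of the 6 regulators.

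Of 3 genes known to respond to SMAD2 and SMAD3, *TGFBI*, which encodes a matrix protein induced by TGF-beta, rose. It was at 806, 476, 504, 2077 and 2073 CPM in Perthes rabbits 1 to 5 and at 261, 191.5 and 214 CPM in controls, with an edgeR log2 fold change of 2.42 ± 0.595 (SE) at an adjusted p of 0.0286. All Perthes rabbits were above all controls, rabbits 4 and 5 by the most. *CCN2* had a log2 fold change of 0.92 (adjusted p = 0.192 from edgeR). Of 4 targets of SMAD1 and SMAD5, 0 were called, with *ID2* at 0.74 and *ID3* at 0.73 (adjusted p of 0.0707 and 0.0627 from edgeR), both without overlap, and *ID1* and *HEY1* at 0.33 and -0.19.

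**Figure D5:**
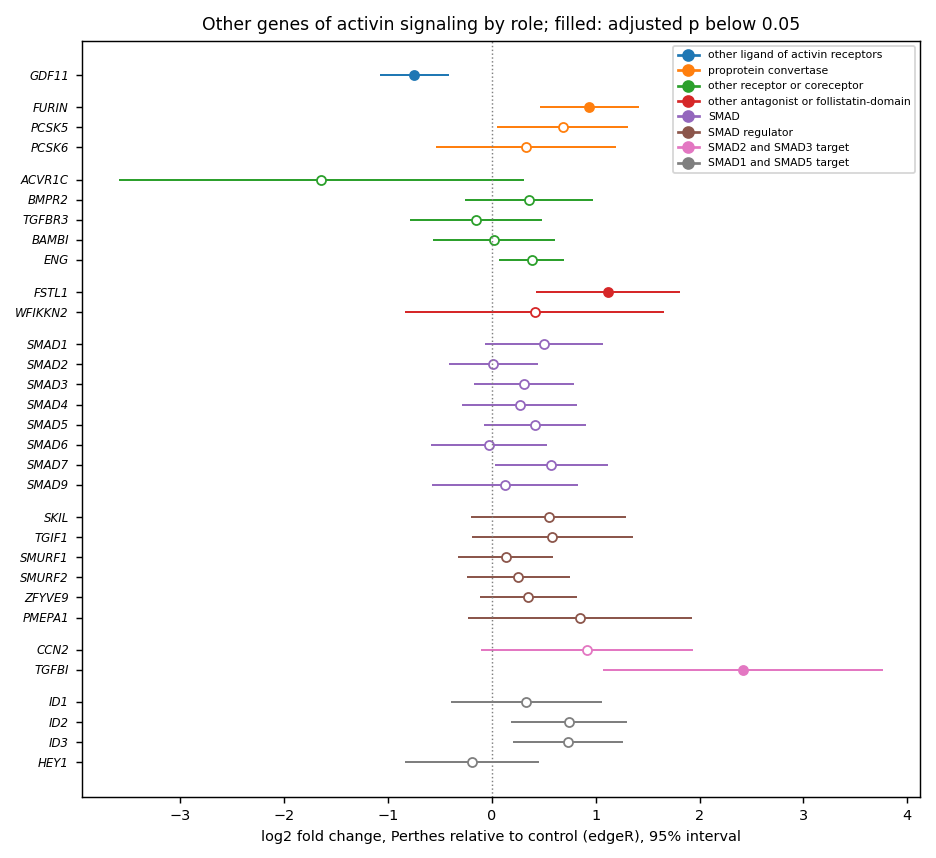
Log2 fold change in Perthes relative to control rabbits from edgeR for 31 of the 32 further pathway genes tested, coloured by role, with 95% intervals as lines and filled points for an adjusted p below 0.05. *GDF11* lies to the left of 0, and *FURIN*, *FSTL1* and *TGFBI* lie to the right.

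The annotation deposited with the counts places 7 of the 9 family genes in the KEGG TGF-beta signaling pathway, all but *INHA* and *ACVRL1*. Of the 91 genes of that pathway tested, 8 rose (8.79%) and 5 fell (5.49%), against 6.21% and 8.86% of all genes, with a median log2 fold change of 0.25. *ACVR1B* was the family gene among the 8. The GO term for activin receptor signaling is narrower and holds 7 of the 9 family genes, all but *INHA* and *ACVR2B*. Of its 18 genes tested 5 rose (27.8%) and 0 fell, with a median log2 fold change of 0.66. The 5 were *ACVR1B* and *ACVRL1* of the family, *GDF6*, *GDF7* and the growth factor gene *FGF10*. *GDF6* and *GDF7*, ligands of the BMP branch that can also use the type II activin receptors, were called in both annotations and, like *FGF10*, are named here after their values were seen. *GDF7* rose from 0.735 ± 0.2525 CPM in the controls (SD, n = 3) to 6.36 ± 3.79 CPM in the Perthes rabbits (SD, n = 5), an edgeR log2 fold change of 3.10 ± 0.60 (SE) at an adjusted p of 0.0151, and *GDF6* from 0.363 ± 0.282 CPM in the controls (SD, n = 3) to 2.73 ± 1.93 CPM in the Perthes rabbits (SD, n = 5), an edgeR log2 fold change of 2.89 ± 0.76 (SE) at an adjusted p of 0.0345.

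The genes most like the receptors that rose were sought among 12309 tested genes with a name, by Pearson's correlation of log2 CPM over the 8 libraries, which share the group difference. For *ACVRL1* they were *PLXNB2* (r = 0.986), *DUSP22* (r = 0.979) and *SLC39A1* (r = 0.972), and for *ACVR1B* they were *SELENOS* (r = 0.977), *SLC27A4* (r = 0.975) and *MESD* (r = 0.974). These values describe likeness over 8 points and carry no test.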

How the data were processed

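Total RNA-seq libraries of 5 Perthes and 3 control rabbits were used, grouped by the codes in their labels. For control rabbit 3 the code was followed, since its title gives a different number. The authors filtered reads, mapped them with HISAT2 2.0.4, estimated gene abundance (RSEM 1.1.17, HTSeq 1.99.2) and deposited expected counts per gene without normalization. The table lists each library again in 8 columns that were not used, and the small RNA table was not used either.

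Expected counts were rounded to whole numbers, filtered with filterByExpr, scaled by TMM and tested in edgeR 4.0.16 (R 4.3.3) by the quasi-likelihood F-test, with Benjamini-Hochberg adjustment over 15305 genes. Whether same-group rabbits were processed separately is not stated beyond their labels, so p-values measure the spread between these samples. Standard errors are the log2 fold change divided by the square root of F, and 95% intervals use its t quantile. Log2 CPM used a prior count of 2, and ratios between genes were taken on counts, with 0.5 added only for their log2. Permutation tests were exact and two-sided, with 56 possible divisions and a smallest p of 0.0357. On simulated counts in which 200 of 15305 genes were given a log2 change of 2, edgeR recovered 73.5% with 4 wrong calls and DESeq2 recovered 87.5% with 56. The planted changes were larger than the fitted changes of *ACVR1B* and *ACVRL1*, so these shares do not apply to changes of that size.

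The family and all gene lists were chosen with earlier results of these data known. The text names all family genes, further pathway genes that were called or most abundant in their role, and the 3 genes most like each called family gene. A few others are named for context. Single genes that belong to these lists and counts but are not named are not reported here. Gene names are those of the deposited table, and all 9 gene identifiers were found in the RefSeq gene table for mOryCun1.1, a different assembly whose coordinates were not used. Gene lengths were not used here. Ratios and sums over different genes, and the choice of the most abundant gene in a role, therefore rest on counts uncorrected for length. Alternatives were DESeq2 1.42.0, other scalings and filters, a blocking term for the replicate number, and fits that left out single rabbits.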

Additional observations from a re-analysis of the deposited data

Results flagged for a closer look

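Among the 9 genes, the 5 Perthes rabbits were checked for a single value far from the others on the log2 scale (Dixon's criterion, which chance meets in about 1 of 20 groups), and 2 values met it. *FST* stood at 1.67 CPM in Perthes rabbit 4, below the next lowest value of 8.10 CPM, and the gap took 0.903 of the range against a critical value of 0.71. *ACVR2A* stood at 17.4 CPM in Perthes rabbit 1, above the next highest value of 10.9 CPM, and the gap took 0.745 of the range. The 429 CPM of *INHBA* in Perthes rabbit 4 did not meet the criterion on this scale. Groups of 3 controls were not checked.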

How the results depend on the processing

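The number of family genes called higher was 5 with DESeq2 and 0 when replicate number entered as a block, and ranged from 0 to 3 with 1 rabbit left out. The number called lower was 0 under every alternative. Of the further pathway genes, 32 were tested in the main and block fits, 31 or 32 with 1 rabbit left out, and 38 were fitted by DESeq2. Among them, the number higher was 6 with DESeq2 and 0 with the block (0 to 3 with 1 rabbit left out). The number lower was 0 with the block (0 to 1 with 1 rabbit left out). Over all genes, 951 were called higher and 1356 lower, with 1700 and 1917 by DESeq2, 0 and 0 with the block, and ranges of 0 to 1267 and 0 to 1628 with 1 rabbit left out. Library totals alone in place of TMM gave 678 and 1705. At an unadjusted p below 0.05 in edgeR the block fit had 1504 genes higher and 1648 lower, and the fit without control rabbit 2, where both counts were 0, had 1624 and 2098. Deviations of same-numbered rabbits correlated at -0.317, 0.161 and -0.238, and those of differently numbered rabbits at -0.314 to 0.435. With so few rabbits these values cannot decide whether replicate numbers pair them. Perthes rabbits 4 and 5 share no number with a control, so the block fit drew its group difference from the other rabbits alone. With the block, *ACVRL1* and *ACVR1B* had log2 fold changes of 0.92 and 0.77, with adjusted p-values of 0.140 and 0.2435 from edgeR. *ACVR2B*, with no call, was below 0 at -0.011 with at least 10 counts required in every library, -0.091 with library totals alone and -0.055 with the block, and ranged from -0.12 to 0.17 with 1 rabbit left out. The other 8 family genes kept their direction under every alternative that could be fitted. The requirement of 10 counts removed *INHBB*. The causes were not tested.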

Other observations

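Further ratios of counts within a library are given as values, with no correction for gene length and no test. There were 16.2 to 274.5 counts of *INHBA* per count of *INHA* in Perthes rabbits and 1.42 to 26.8 in controls. There were 0.945 to 46.5 counts of *INHBA* per count of *ACVR2A* in Perthes rabbits and 0.343 to 2.195 in controls. The type I receptors kept closer proportions, with 6.54 to 9.79 counts of *ACVR1* per count of *ACVR1B* in Perthes rabbits and 4.40 to 14.3 in controls, and 0.425 to 0.777 counts of *ACVRL1* per count of *ACVR1* in Perthes rabbits and 0.333 to 0.837 in controls. The groups overlapped in each of these ratios.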
